A study of Mus musculus with 8 samples.

Results

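The Gimap genes encode GTPases of immunity-associated proteins, a family of small GTP-binding proteins. The 8 mouse genes Gimap1, Gimap3, Gimap4, Gimap5, Gimap6, Gimap7, Gimap8 and Gimap9 were taken by name from a table of 24011 named genes, and all 8 were measured, each by a single probe set. Expression had been profiled with 1-colour Affymetrix arrays in sorted bone marrow cells of adult mice of strain C57Bl6, 4 arrays for each of 2 populations. Lin+ cells carry surface markers of mature blood lineages. The HSC-enriched cells, so called because haematopoietic stem cells (HSCs) make up much more of them than of whole marrow, were LSK cells without CD48, where LSK stands for no lineage markers with Sca-1 and Kit present. The sample labels give CD105 as their further positive marker, and the design text gives CD150. No treatment, genetic change, sex or number of animals is stated, and whether the samples of a group came from separate animals is not stated either, so the spread behind each p-value is that between these samples and could be technical. Because these are bulk samples, fewer cells of a type and less RNA per cell cannot be told apart.

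Gimap proteins share a GTP-binding domain called AIG1, and several are anchored in the membranes of intracellular organelles. They are best known from lymphocytes. Rodents that lack Gimap5 lose peripheral T cells, and loss of Gimap5 in mice also impairs the survival of haematopoietic stem cells. In mammals the genes form a cluster on a single chromosome.

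The sort was described by genes known from HSCs, a list chosen with earlier results of these data known and so no independent check. All 9 measured genes of that list, which holds Meis1, Hlf and Mecom, were higher in HSC-enriched cells, against 15.5% of all genes. Their mean level ran from 5.26 to 5.29 on Lin+ arrays and from 8.56 to 8.68 on HSC-enriched arrays (log2). The HSC-enriched arrays were unequal in transcripts of neutrophils: 10 neutrophil markers averaged 9.77 and 9.50 on replicates 3 and 4, higher than the 7.04 and 6.99 of replicates 1 and 2 and lower than the 11.86 to 12.09 of the Lin+ arrays. Results were therefore also computed without replicates 3 and 4. The level under which 95% of the values of 1091 olfactory receptor genes lay, 5.11, served as a guide to background, since the table has no detection calls.

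The Gimap genes split by direction. Gimap5, Gimap6, Gimap1 and Gimap8 were higher in HSC-enriched than in Lin+ cells, Gimap3, Gimap4 and Gimap7 were lower, and Gimap9 did not pass the test. The 4 higher genes are set against a background of 15.5% of all genes tested that were called higher, and the 3 lower genes against 12.4% called lower (limma, Benjamini-Hochberg adjusted p under 0.05 over all genes). The arrays of the 2 groups did not overlap for 7 of the 8 genes, against 28.9% of all genes. The median difference of the 8 genes was 0.33 on the log2 scale, and that of all genes was 0.02. The median describes neither set of members, since no member lay between Gimap9 at -0.18 and Gimap8 at 0.85.

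Gimap5, whose product is a lysosomal membrane protein needed for the survival of T cells, had the largest rise of the family. Its level was 5.80, 6.30, 6.00 and 6.12 on Lin+ replicates 1 to 4 and 7.48, 7.66, 7.54 and 7.44 on HSC-enriched replicates 1 to 4 (log2). Every HSC-enriched array lay at least 1.14 above the highest Lin+ array. The difference was 1.48 ± 0.12 (log2, SE, n = 4 per group), a 2.78-fold higher level (adjusted p = 1.01e-05).

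Gimap6 encodes a protein that binds Gabarapl2, a member of the Atg8 family of autophagy proteins. It was at 8.91, 8.91, 8.67 and 8.90 on Lin+ arrays and at 10.13, 9.90, 10.22 and 10.01 on HSC-enriched arrays. Lin+ replicate 3 was the lowest of its group, and the groups did not overlap. Gimap6 was 2.33-fold higher in HSC-enriched cells, with a difference of 1.22 ± 0.11 (adjusted p = 1.8e-05).

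Gimap1, which is required for the maintenance of mature B and T cells, was also higher. Its level was 6.31, 6.25, 5.89 and 6.08 on Lin+ arrays against 7.23, 6.99, 6.92 and 7.18 on HSC-enriched arrays. The lowest HSC-enriched array lay 0.61 above the highest Lin+ array. The difference was 0.95 ± 0.13, or 1.93-fold (adjusted p = 0.000242).

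Gimap8 differs from the other members in carrying several AIG1 domains in a single protein. Its Lin+ arrays were spread out, at 6.44, 5.58, 6.54 and 5.85, whereas the HSC-enriched arrays were at 6.66, 7.02, 7.11 and 7.01. Lin+ replicates 1 and 3 came close to HSC-enriched replicate 1, and the groups were separated by only 0.12. Gimap8 was 1.80-fold higher (difference 0.85 ± 0.21, adjusted p = 0.012). With HSC-enriched replicates 3 and 4 both left out, Gimap8 no longer passed (0.74, adjusted p = 0.0976), nor did it in a test against a 1.2-fold null (adjusted p = 0.0573).

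**Figure D1:**
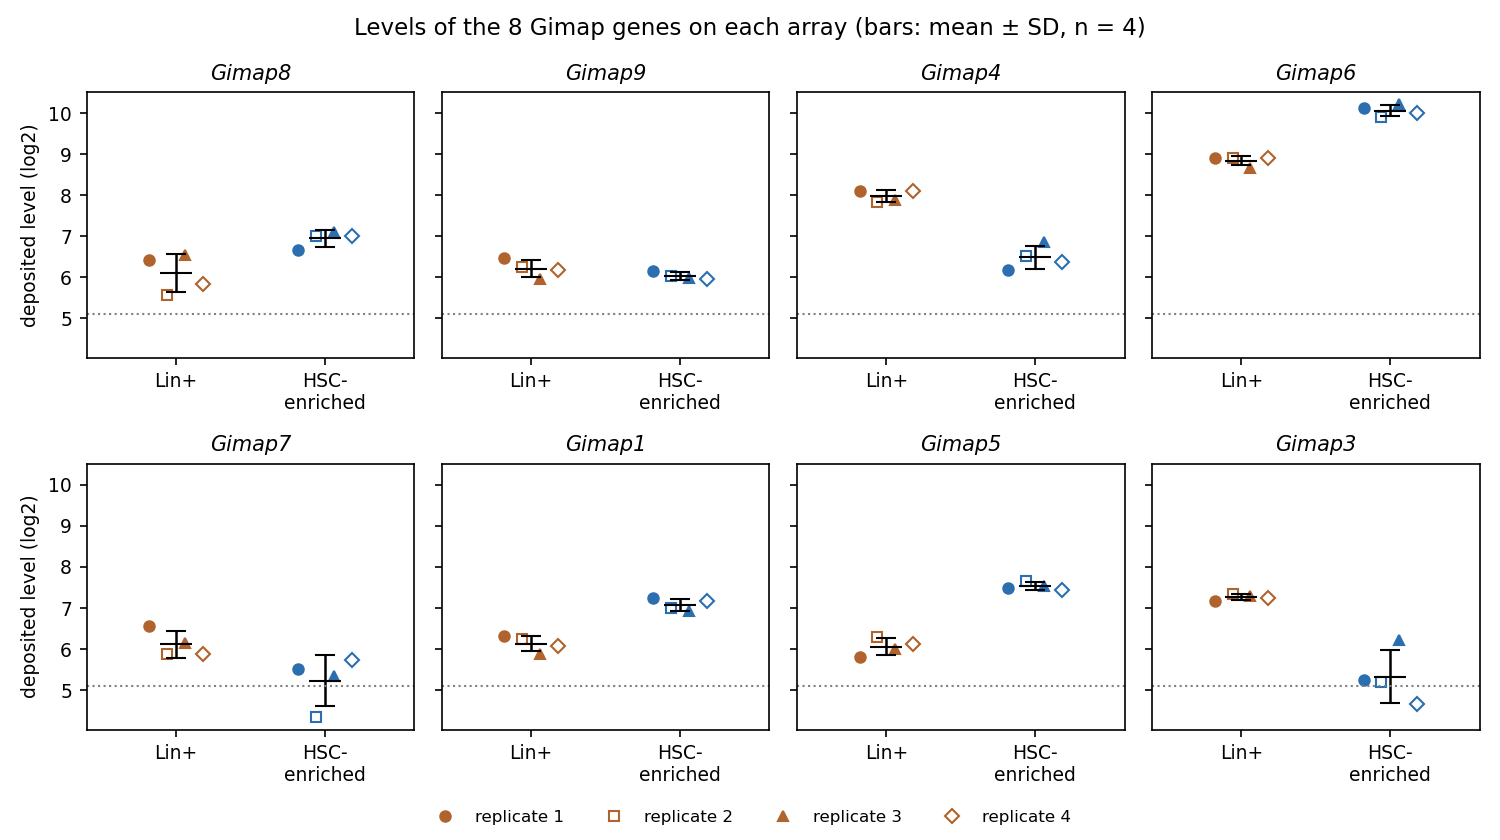
Deposited levels (log2) of the 8 Gimap genes on the 4 Lin+ arrays (orange) and the 4 HSC-enriched arrays (blue), 1 panel per gene in chromosome order, with 1 symbol per replicate, black bars for mean ± SD and a dotted line at the background guide of 5.11. HSC-enriched arrays lie above all Lin+ arrays for Gimap8, Gimap6, Gimap1 and Gimap5 and below them for Gimap4, Gimap7 and Gimap3; Gimap9 overlaps.

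Gimap3 had the largest fall of the family. Its product is the closest relative of Gimap5, and the human counterpart is a pseudogene. The Lin+ arrays agreed closely, at 7.18, 7.33, 7.30 and 7.24, while the HSC-enriched arrays were at 5.24, 5.21, 6.22 and 4.66. Replicate 3 was the highest and replicate 4 the lowest of the HSC-enriched arrays, the latter under the background guide. Gimap3 was 3.82-fold lower in HSC-enriched cells (difference -1.93 ± 0.27, adjusted p = 0.000315). The SD within the group was 0.65 for HSC-enriched against 0.07 for Lin+ cells. How far probes of Gimap3 and Gimap5 detect each other's transcript was not tested.

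Gimap4, which is known to speed up the death of T cells, fell as well. It was at 8.11, 7.84, 7.88 and 8.10 on Lin+ arrays and at 6.18, 6.52, 6.85 and 6.38 on HSC-enriched arrays. HSC-enriched replicate 3 was again the highest of its group, and the groups were 0.99 apart. The difference was -1.50 ± 0.15, or 2.82-fold lower (adjusted p = 3.22e-05).

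Gimap7, whose human counterpart forms dimers that activate GTP hydrolysis, had the least secure fall. The Lin+ arrays were at 6.56, 5.87, 6.14 and 5.89 and the HSC-enriched arrays at 5.51, 4.33, 5.34 and 5.73. HSC-enriched replicate 2 lay under the background guide, and replicate 4 came within 0.14 of the lowest Lin+ array. Gimap7 was 1.85-fold lower (difference -0.89 ± 0.28, adjusted p = 0.0389). The call was lost when any single Lin+ array or HSC-enriched replicate 3 was left out (adjusted p = 0.0517 to 0.101), and without HSC-enriched replicate 2 the difference shrank to -0.59 (adjusted p = 0.0463).

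Gimap9 was the member with no call. Its levels were 6.46, 6.25, 5.96 and 6.19 on Lin+ arrays and 6.16, 6.03, 5.99 and 5.95 on HSC-enriched arrays, and the groups overlapped. The difference was -0.18 ± 0.12 (adjusted p = 0.342), with a 95% interval of the fit from -0.45 to 0.09. That interval leaves out changes as large as those of the other 7 fitted differences but does not show that the level was equal.

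**Figure D2:**
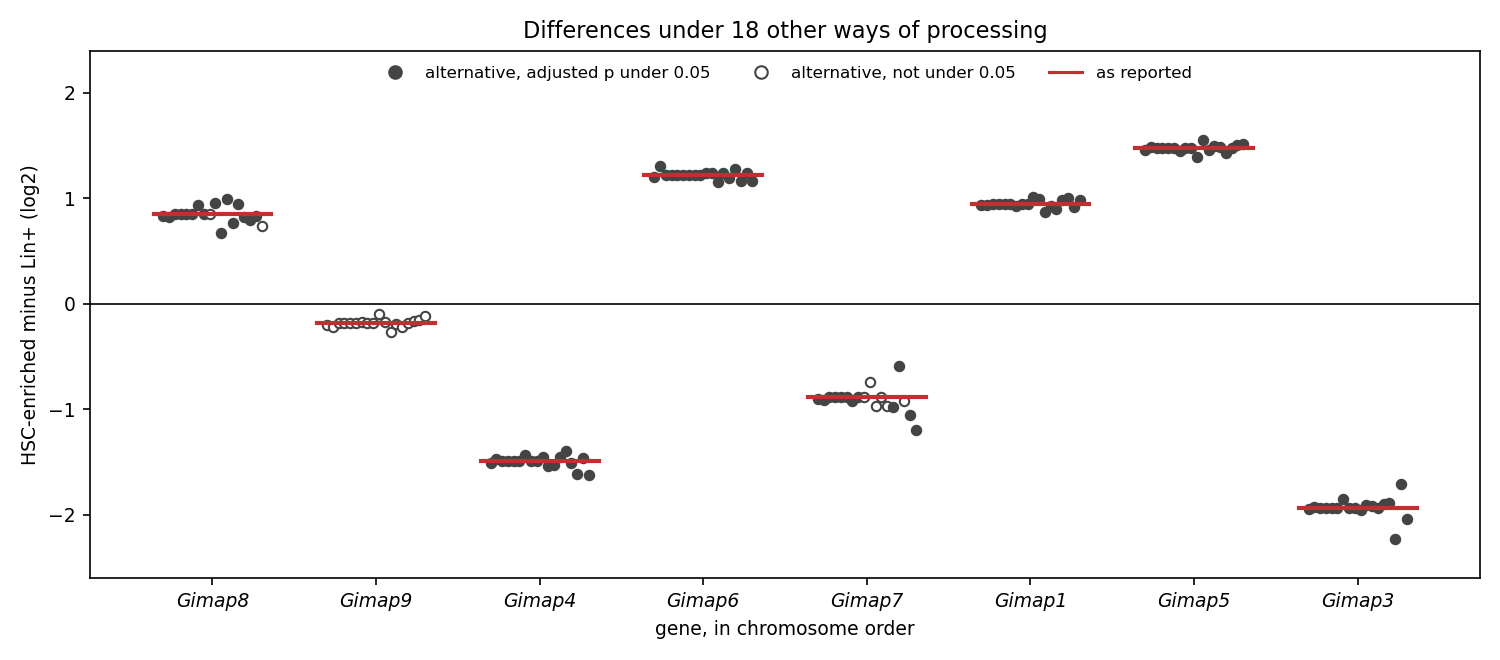
Fitted difference (HSC-enriched minus Lin+, log2) of each Gimap gene under 18 other ways of processing, with filled points where the adjusted p was under 0.05, open points where it was not, and a red line at the reported value. No gene changed sign, though some of the 18 cannot alter the fitted difference. Open points occur for Gimap9 throughout, for Gimap7 in 6 of 18 and for Gimap8 in 2 of 18.

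Members were then compared in their change. For each of the 28 pairs of genes, the log2 difference between both genes within an array was compared across the groups with a two-sided exact permutation test over the 70 ways of assigning the arrays, for which the smallest possible p is 0.0286. After adjustment over the 28 pairs, 19 pairs passed, each at adjusted p = 0.0421. All 12 pairs of a higher with a lower member were among them, which follows from their opposite calls. The 19 pairs all stood at the smallest possible p, so their adjusted value depends on how many pairs reach it. The other 7 pass only because the 12 foregone pairs are in the adjustment, so their passing is not read as a difference in change. Among the 6 pairs of higher members only those of Gimap1 with Gimap5 and with Gimap6 passed, on these terms. The change of Gimap1 minus that of Gimap5 was -0.53 ± 0.18 (SE), and the change of Gimap1 minus that of Gimap6 was -0.27 ± 0.12.

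In the order of the differences, several neighbours were not separated beyond their spread. Gimap5 and Gimap6 differed in change by 0.26 ± 0.15 (exact permutation, adjusted p = 0.16) and Gimap1 and Gimap8 by 0.10 ± 0.32 (adjusted p = 0.8, exact). None of the 3 pairs of lower members passed. The change of Gimap3 minus that of Gimap4 was -0.44 ± 0.26 (exact permutation, adjusted p = 0.139), and that of Gimap4 minus that of Gimap7 was -0.61 ± 0.40 (exact permutation, adjusted p = 0.215). Gimap9 passed against 5 of the other 7 genes, but only with the foregone pairs in the adjustment, so these calls are not read as differences. It did not pass against Gimap8 (1.03 ± 0.30 for Gimap8 minus Gimap9, exact permutation, adjusted p = 0.08) or Gimap7 (-0.71 ± 0.34 for Gimap7 minus Gimap9, exact permutation, adjusted p = 0.109). A pair that misses the threshold is not shown to change alike.

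**Figure D3:**
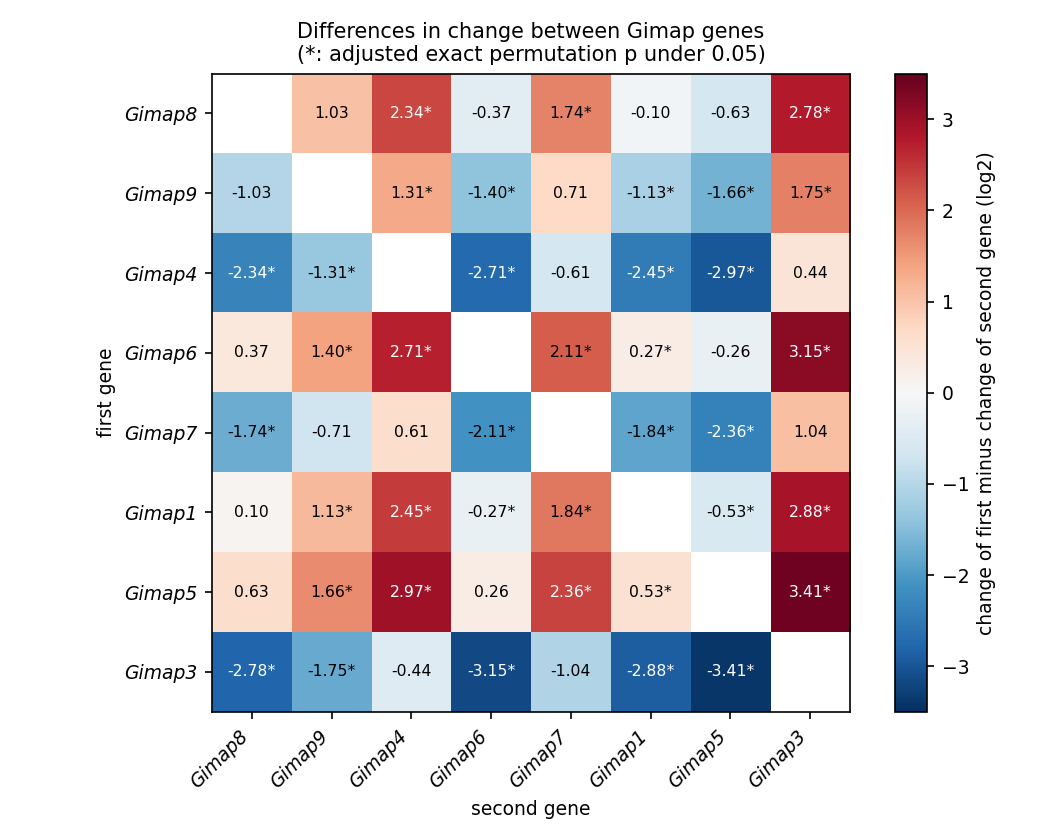
Difference between the changes of 2 Gimap genes (HSC-enriched minus Lin+, log2; row gene minus column gene), with an asterisk where the exact permutation p, adjusted over 28 pairs, was under 0.05. Red and blue cells fill the crossings of higher with lower members, with the extreme at -3.41 for Gimap3 minus Gimap5. Pairs within a direction lie between -0.63 and 0.63 except Gimap3 and Gimap7. Asterisks outside those crossings depend on the foregone pairs in the adjustment.

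The split cut across the gene cluster. In the order of the RefSeq gene table (GRCm38.p6, used for order only, since the build behind the deposited values is not stated), the members run Gimap8, Gimap9, Gimap4, Gimap6, Gimap7, Gimap1, Gimap5 and Gimap3. Of the 7 adjacent pairs in this order, 4 had opposite calls, 1 had the same call and 2 included Gimap9. The adjacent genes Gimap5 and Gimap3, at 1.48 and -1.93, held the largest rise and the largest fall, and their change differed by -3.41 ± 0.32 (Gimap3 minus Gimap5, SE; exact permutation p = 0.0286, adjusted p = 0.0421). Gimap4 and Gimap6, next to each other as well, stood at -1.50 and 1.22. Gimap1 and Gimap5 were the adjacent pair that rose together.

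Genes beside the cluster were examined by position. Of the 12 nearest measured protein-coding genes, 6 on each side, 4 were higher, 1 was lower and 7 did not pass. The median of the 12 was 0.16, and it includes genes that lay under the background guide on every array. Over all genes, 15.5% were called higher and 12.4% lower. Next to Gimap3, the membrane protein genes Tmem176b and Tmem176a rose. Tmem176b was at 6.47, 6.96, 7.30 and 6.95 on Lin+ arrays and at 9.72, 9.73, 9.64 and 9.73 on HSC-enriched arrays, a 6.89-fold difference (adjusted p = 9.1e-07). Tmem176a was 4.76-fold higher (difference 2.25 ± 0.15, adjusted p = 3.02e-06). Both fitted differences were larger than that of any Gimap gene, and Gimap3, which lies between them and Gimap5, was the member with the largest fall.

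On the other side of the cluster, Zfp775, the gene nearest to Gimap8, was at 0.06 ± 0.19 (adjusted p = 0.87). Repin1, which encodes a zinc finger protein, was 2.49-fold higher (adjusted p = 0.000108). The predicted gene Gm5111 was higher by 3.38 ± 0.17 (adjusted p = 5.56e-07), with all 4 Lin+ arrays under the background guide. Lrrc61 fell by 0.64 (adjusted p = 0.00868), a call lost without HSC-enriched replicates 3 and 4 (-0.38, adjusted p = 0.0782). The other 6 of these 12 genes were Atp6v0e2, Rarres2, Gm7932, Aoc1, Doxl1 and Doxl2, none of which passed (differences of -0.02 to 0.27). Atp6v0e2, Aoc1, Doxl1 and Doxl2 lay under the background guide on every array, so their differences are between background values.

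**Figure D4:**
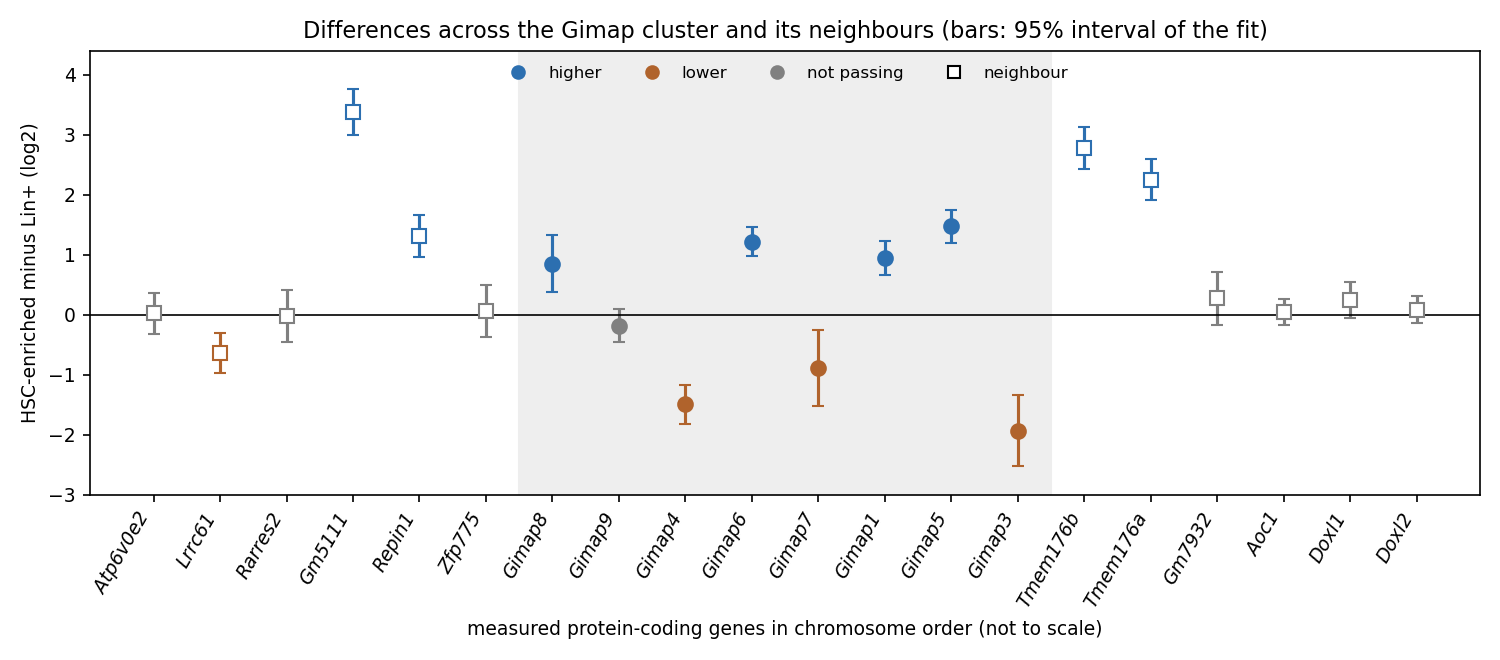
Fitted difference (HSC-enriched minus Lin+, log2, bars for the 95% interval of the fit) of the 8 Gimap genes (filled circles, grey band) and the 6 nearest measured protein-coding genes on each side (open squares), in chromosome order and not to scale. Blue marks higher, orange lower and grey genes that did not pass: the signs alternate inside the band from Gimap4 to Gimap1, and Gimap3 at -1.93 stands between Gimap5 at 1.48 and Tmem176b at 2.79.

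The promoter windows of 2 of the 4 adjacent pairs with opposite calls, Gimap5 with Gimap3 and Gimap4 with Gimap6, are shown because these genes lie side by side and their changes lay farthest apart. Each is the 250 bases before the annotated start (RefSeq, GRCm38.p6), written 5′ to 3′ on the strand of its gene. Capitals mark the letters AGGAAG, which hold the core bound by Ets factors, and TGTGGT, which hold the core bound by Runx factors, on either strand. The windows are chr6:48745947-48746196 (plus strand) for Gimap5, chr6:48770852-48771101 (minus strand) for Gimap3, chr6:48684328-48684577 (plus strand) for Gimap4 and chr6:48708245-48708494 (minus strand) for Gimap6.
Gimap5: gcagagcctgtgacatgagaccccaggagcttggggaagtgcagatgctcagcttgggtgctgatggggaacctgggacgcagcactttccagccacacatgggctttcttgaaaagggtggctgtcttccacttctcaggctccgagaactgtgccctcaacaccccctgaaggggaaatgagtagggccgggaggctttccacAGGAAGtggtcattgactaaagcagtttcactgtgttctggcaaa
Gimap3: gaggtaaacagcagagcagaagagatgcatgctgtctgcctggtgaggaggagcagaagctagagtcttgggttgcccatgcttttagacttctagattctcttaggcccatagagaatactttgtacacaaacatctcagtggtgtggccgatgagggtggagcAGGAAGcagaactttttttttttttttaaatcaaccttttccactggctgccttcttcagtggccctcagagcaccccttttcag
Gimap4: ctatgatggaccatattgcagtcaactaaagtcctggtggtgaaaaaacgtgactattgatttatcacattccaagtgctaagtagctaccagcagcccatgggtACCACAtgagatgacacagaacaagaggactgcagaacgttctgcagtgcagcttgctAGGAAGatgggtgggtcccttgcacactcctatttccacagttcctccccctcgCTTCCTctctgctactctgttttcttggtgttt
Gimap6: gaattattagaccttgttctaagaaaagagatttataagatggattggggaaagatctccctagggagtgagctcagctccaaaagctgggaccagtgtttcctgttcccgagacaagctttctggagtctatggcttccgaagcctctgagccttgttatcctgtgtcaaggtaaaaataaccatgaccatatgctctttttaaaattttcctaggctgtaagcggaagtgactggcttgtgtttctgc

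The Ets letters were common to higher and lower members. AGGAAG, searched on both strands, was found in the windows of 7 of the 8 Gimap genes, all but Gimap6, and in 29.5% of all 32851 promoter windows. Those 7 genes comprise 3 that rose, 3 that fell and Gimap9. Other forms of the letters around the Ets core were not searched. The Gimap6 window holds cggaag, which differs from AGGAAG in its first letter only, so it is not shown to lack Ets letters. In Gimap5 the match begins 45 bases before the start and in Gimap3 85 bases before it, and Gimap4 has a pair of matches, beginning 87 and 33 bases before the start. The Runx letters TGTGGT were found in Gimap1, which rose, and in Gimap4 and Gimap7, which fell, against 4614 of the 32851 windows.

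Other motifs searched on both strands were rarer. TTCNNNGAA, the letters of Stat factors, was in the windows of Gimap6 and Gimap8 (7.02% of all windows), and TATAAA in that of Gimap6 (12.4%). In Gimap8 the Stat match overlaps the Ets match. Gimap8 has a second annotated start, whose window held none of the motifs searched. AGATAA, a form of the letters read by Gata factors, was in no Gimap window and in 9.99% of all windows. CAGCTG, a form of the E-box, was in no Gimap window either, against 4271 of the 32851 windows. The same held for CTTTGA, read by Tcf and Lef factors (13.8% of all windows), and for a longer motif of Irf factors (2.98%). Each match is a run of letters, not a site shown to be bound. Only these exact runs were searched, so a window without a run can still hold another form. The Gimap1 window, for example, holds agatag.

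Lymphocyte markers were mostly lower in HSC-enriched cells, as were Gimap3, Gimap4 and Gimap7. The neutrophil, monocyte and erythroid lists fell as well (medians -3.42, -3.27 and -3.56), so this direction was not particular to lymphocytes. Of 10 measured T cell markers 7 fell, 1 rose and 2 did not pass (median -1.48), and the mean level of the list was 6.84 to 7.07 on Lin+ arrays against 5.18 to 5.44 on HSC-enriched arrays. Cd2 and Cd3g fell by 4.79 and 3.69. Cd3e, Cd3d, Cd3g, Cd2 and Cd8a lay under the background guide on all 4 HSC-enriched arrays, whereas Gimap4 lay above it on all 4. Lat, a signalling adaptor of T cells and platelets, was the marker that rose (1.50 ± 0.12), and Cd247 (0.09) and Cd6 (-0.26) did not pass. Beside this list and those that follow stand the shares of all genes, 15.5% called higher and 12.4% called lower.

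NK and B cell markers went the same way. Of 9 NK cell markers 8 fell (median -1.70), with Klrd1 at -4.20 and Gzma at -4.13, and with Klrb1c (-0.31) not passing; their mean was 7.04 to 7.39 on Lin+ and 4.78 to 5.25 on HSC-enriched arrays. All 9 measured B cell markers fell (median -4.48), with Ms4a1 and Ebf1 at -5.48 and -5.43, and their mean was 9.34 to 10.04 on Lin+ and 4.82 to 6.24 on HSC-enriched arrays. Klrd1, Gzma and Ms4a1 were at or under the background guide on all 4 HSC-enriched arrays and Ebf1 on all but replicate 3, so the sizes of their differences rest on values near background. The higher Gimap genes changed in the opposite direction to these lists. The part of the content of lymphocytes or other mature cells in the change of Gimap3, Gimap4 and Gimap7 was not tested.

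HSC-enriched replicate 3 had the highest level of its group for Gimap3 (6.22) and Gimap4 (6.85), and also for the T cell (5.44), NK cell (5.25), B cell (6.24), neutrophil (9.77), monocyte (5.38) and erythroid markers (5.92). It was likewise the highest for the higher members Gimap6 (10.22) and Gimap8 (7.11). For Gimap7 the highest was replicate 4, at 5.73. Replicate 3 did not pass Dixon's critical value for Gimap3 or Gimap4. Without replicate 3, Gimap3 fell by 2.23 (adjusted p = 9.11e-06) and Gimap4 by 1.62 (adjusted p = 2.28e-05), and without replicates 3 and 4 their differences were -2.04 and -1.63.

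**Figure D5:**
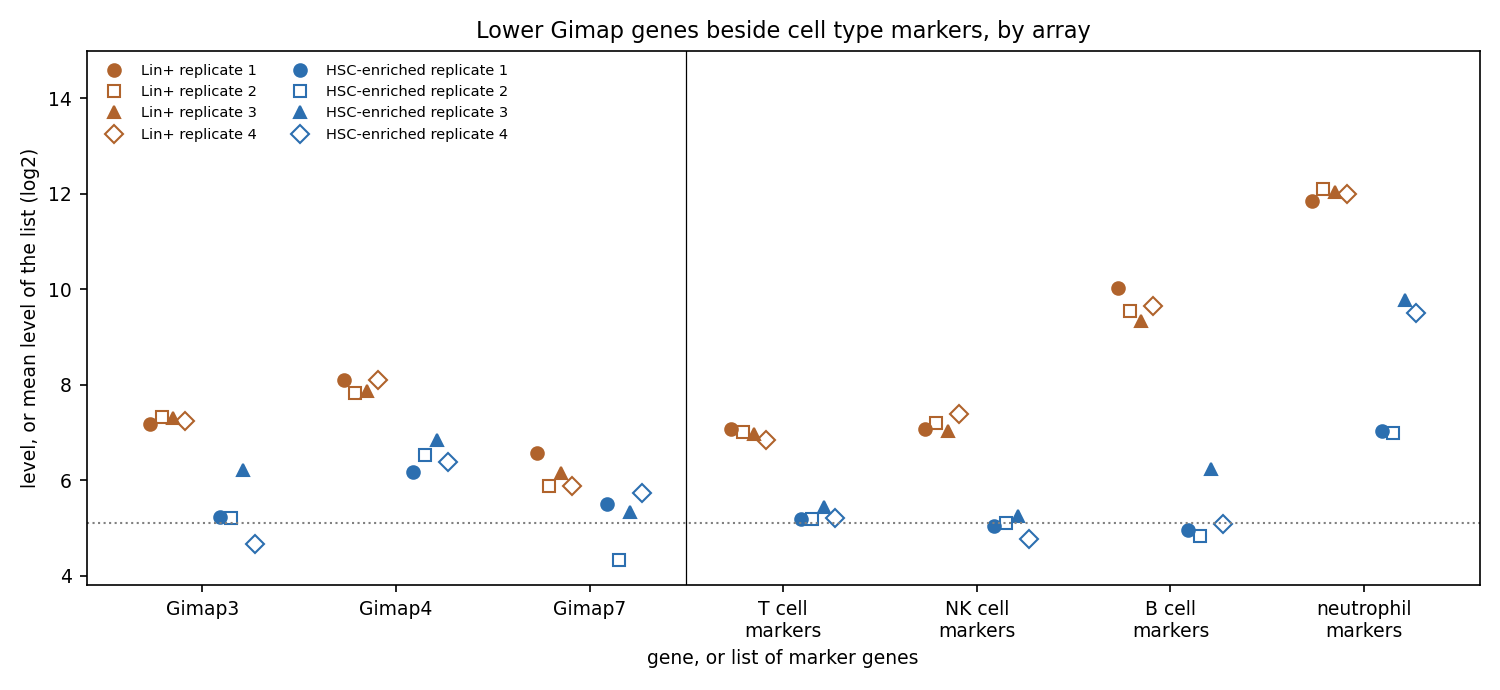
Level (log2) of Gimap3, Gimap4 and Gimap7 and mean level of T cell, NK cell, B cell and neutrophil markers on each Lin+ (orange) and HSC-enriched array (blue), with 1 symbol per replicate and a dotted line at the background guide of 5.11. HSC-enriched replicate 3 (filled blue triangles) is the highest of its group for Gimap3, Gimap4 and all 4 marker lists, but not for Gimap7.

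Markers of other types that the HSC-enriched gate could hold are given beside the higher Gimap genes. Among 8 endothelial markers 3 rose, 1 fell and 4 did not pass (median 0.22). Emcn and Tie1, which HSCs share with endothelium, rose by 4.22 and 3.17, while Cdh5 (-0.36) and Kdr (0.30) did not pass. Emcn lay under the background guide on all 4 Lin+ arrays and Tie1 on 3 of them, so the sizes of these rises rest on values near background. Pecam1 was the marker that fell (-0.35, adjusted p = 0.0274), and leaving out Lin+ replicate 2 or either of HSC-enriched replicates 1 and 2 ended its call (adjusted p = 0.0675 to 0.0784). The list's mean was 5.54 to 5.77 on Lin+ and 6.48 to 6.90 on HSC-enriched arrays. Of 6 measured megakaryocyte markers 3 rose and 3 did not pass (median 0.82), led by Gp9 at 2.14 and Itga2b at 1.38. The mean of this list was 5.46 to 6.27 on Lin+ and 6.60 to 7.02 on HSC-enriched arrays. Among those that did not pass, Gp6 lay under the background guide on every array and Gp1bb on all 4 Lin+ and 3 HSC-enriched arrays. All 8 monocyte and all 6 measured erythroid markers fell, with medians of -3.27 and -3.56, and 9 of 10 neutrophil markers fell (median -3.42). The part of these cell types in the change of Gimap5, Gimap6, Gimap1 and Gimap8 was not tested.

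Genes of proteins reported to bind or work with Gimap proteins had calls in both directions. Of 10 measured, 4 were higher, 2 were lower and 4 did not pass, with a median of 0.06. Bax was not analysed here. Over all genes, 15.5% were called higher and 12.4% lower, so 2 lower genes of 10 are too few to set apart from that share. Bcl2, a survival gene whose product has been reported to bind Gimap3 and Gimap5, was at 8.42, 7.96, 8.04 and 7.95 on Lin+ and at 8.91, 8.95, 9.01 and 9.17 on HSC-enriched arrays. It rose by 0.92 ± 0.13 (adjusted p = 0.000344), with no overlap between the groups. Bcl2l1, which encodes the related survival protein Bcl-xL, moved the other way (-0.87 ± 0.15, adjusted p = 0.00115). Mcl1 and Hspa8 encode a survival protein and a chaperone that have been reported together with Gimap5. Mcl1 did not pass (0.08 ± 0.09, 95% interval -0.12 to 0.28) and Hspa8 rose 1.47-fold (adjusted p = 0.00284). Bak1, a death gene (-0.24), and the kinase gene Gsk3b (0.03) did not pass either.

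Among the Atg8 genes, to which the partner of Gimap6 belongs, Gabarapl2 itself did not pass (-0.33 ± 0.14, adjusted p = 0.11). Gabarapl1 rose most, from 5.98, 7.25, 6.83 and 6.88 on Lin+ arrays to 9.88, 10.07, 9.76 and 9.69 on HSC-enriched arrays. That is an 8.64-fold difference (adjusted p = 5e-06), the largest of the partner list. Gabarap was lower by 0.48 (-0.48 ± 0.11, adjusted p = 0.00952), a call lost without HSC-enriched replicates 3 and 4 (adjusted p = 0.0633). Map1lc3b rose by 0.37 ± 0.11 (adjusted p = 0.0253). Leaving out Lin+ replicate 3 ended that call (adjusted p = 0.0676), as did leaving out the third HSC-enriched array (adjusted p = 0.0765).

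Transcription and homeostasis genes of lymphocytes mostly fell. Of 14 measured, 10 were lower, 3 were higher and 1 did not pass (median -1.0). Il7r, the receptor of a survival cytokine of T cells, and Ikzf3, a transcription factor gene of B cells, fell, with fitted differences of -5.41 and -3.75. Both were at or under the background guide on all 4 HSC-enriched arrays, so the sizes of these differences rest on values near background. Gata3 rose by 0.70 ± 0.15 and S1pr1, a receptor for leaving lymphoid organs, by 0.60 ± 0.20. S1pr1 overlapped between the groups and lost its call without any of 6 single arrays, among them Lin+ replicate 4 (adjusted p = 0.117). Klf2 (-0.63, adjusted p = 0.0557) did not pass with all arrays. Leaving out Lin+ replicate 4 made it -0.83 (adjusted p = 0.008), and leaving out HSC-enriched replicate 1 made it -0.80 (adjusted p = 0.0179).

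Other GTPases of immunity, the guanylate-binding proteins, immunity-related GTPases and Mx proteins, are induced by interferon and do not belong to the Gimap family. Of 14 measured, 6 were higher, 2 were lower and 6 did not pass, with a median of 0.50. Iigp1 and Gbp7 rose 5.07-fold and 2.88-fold, while Gbp9 and Mx1 fell 2.17-fold and 1.52-fold. With HSC-enriched replicates 3 and 4 left out, Mx1 did not pass (-0.58, adjusted p = 0.0617). Irgm1 (0.24) and Irgm2 (0.32) did not pass with all arrays. Over all genes, 15.5% were called higher and 12.4% lower. Both families held members of either direction, but the 2 lower genes of 14 lie near the share of all genes.

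Each Gimap gene was finally matched to the named genes with the most similar pattern. The measure was the root-mean-square difference between log2 profiles over the 8 arrays after each gene was centred on its own mean. Predicted loci, clone names, small RNAs, olfactory and vomeronasal receptor genes, and immunoglobulin and T cell receptor segments were left out of the search. Small values mean similar patterns, and with 2 groups the measure mostly reflects the size of the group difference. The nearest genes were Slc50a1 (0.08) and Plxnc1 (0.08) for Gimap5, Poli (0.08) and Stard13 (0.08) for Gimap6, and Psip1 (0.08) and Akap8l (0.09) for Gimap1. For Gimap8 they were Slco2a1 and Fzd7, both at 0.17. Kif21b (0.07) and Knl1 (0.14) were nearest to Gimap4, and Scimp (0.19) and H3c14 (0.20) to Gimap3. Calhm2 (0.20) and Map11 (0.21) were nearest to Gimap7, and Cyp4a30b and Trim69, both at 0.05, to Gimap9. Cyp4a30b and Trim69 lay under the background guide on every array, so their match is one of background values with a gene that hardly changed. Stard13 lay under the guide on all 4 Lin+ and 2 HSC-enriched arrays. Within the family, Gimap1 and Gimap6 were each other's nearest member (0.20), as were Gimap3 and Gimap4 (0.38). Gimap5 was nearest to Gimap6 (0.23), and Gimap7 and Gimap9 were nearest to each other at 0.55. No Gimap gene had another as its nearest gene overall.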

How the data were processed

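The authors deposited log2 values of 24973 probe sets on 8 arrays, made with RMA and Partek per the submitters' processing notes, which give no versions. A few nanograms of RNA were amplified before labelling, and 2 array versions are named without saying which sample went on which, per the labels' protocols. The sources used here do not give the genome build or the probe set definition. Probe sets were named by Entrez gene ID (24015 with 1 symbol, 0 with several, 958 unnamed), and the brightest of several per gene was kept. Precision is limited by the number of arrays.

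HSC-enriched was compared with Lin+ by limma 3.58.1 (lmFit and eBayes, R 4.3.3) over 24011 genes without filter or covariates, with Benjamini-Hochberg adjusted p under 0.05 over all genes. Pairs of members were compared by exact permutation. The fit was tested on simulated data. The members and lists were chosen with earlier results of these data known. Named were all members, partners and neighbours, and the 2 most similar genes per member after the exclusions given above. In each other list up to 2 leading rises, falls and non-passing genes were named. Not all of these are printed. Replicate numbers are shared by both groups, but same-numbered arrays did not deviate together (correlations of -0.15 to 0.06), so they were not treated as pairs. Promoter sequences are from RefSeq (GRCm38.p6). Proteins were not used here. Alternatives were another scaling, filters, variance models, array weights, a replicate block, a 1.2-fold null and arrays left out. Plots were made in Python 3.11.15 with matplotlib 3.10.9.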

Additional observations from a re-analysis of the deposited data

Results flagged for a closer look

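Gimap6 on Lin+ arrays had a single array apart from the others: replicate 3 was at 8.67 against 8.90 to 8.91 on the other 3 arrays. The gap made up 0.958 of the group's range, above Dixon's 95% critical value for 4 samples. Chance gives a gap past that critical value in about 1 of 20 groups, and 16 groups of member and population were examined. Without Lin+ replicate 3 the difference of Gimap6 was 1.16 (limma, adjusted p = 9e-05).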

How the results depend on the processing

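The 18 alternatives kept the sign of all 8 Gimap differences, but not all of them could change it. The filters, the variance models, the replicate block and the 1.2-fold null leave the fitted difference as it is. So does averaging probe sets, since each Gimap gene has a single probe set. Gimap1, Gimap3, Gimap4, Gimap5 and Gimap6 stayed past the threshold in each alternative, and Gimap9 in none. The ranges were 0.87 to 1.01 for Gimap1, -2.23 to -1.71 for Gimap3, -1.63 to -1.40 for Gimap4, 1.39 to 1.56 for Gimap5, 1.16 to 1.31 for Gimap6 and -0.27 to -0.10 for Gimap9. Against a 1.2-fold null, Gimap7 (-0.89, adjusted p = 0.127) and Gimap8 (0.85, adjusted p = 0.0573) did not pass, as that test demands a larger change, and 2141 and 2047 genes were called higher and lower in place of 3716 and 2969. Gimap8 also did not pass without HSC-enriched replicates 3 and 4 (0.74, adjusted p = 0.0976), with fewer samples. With single arrays left out, Gimap7 ran from -1.06 to -0.59, and the call was lost in 5 of 8 cases. Over those same cases Gimap8 ran from 0.68 to 0.99 with adjusted p of 0.00618 to 0.0377. The replicate block, which rests on a shared number only, left the call of every Gimap gene as it was (Gimap7 -0.89, adjusted p = 0.0204; Gimap8 0.85, adjusted p = 0.0217), with 3379 and 2743 genes called higher and lower; 2 of 4 HSC-enriched arrays correlated best with the Lin+ array of their own number. The median of the 8 differences lay between 0.25 and 0.43. Signals near background limit what Gimap3 and Gimap7 can show in HSC-enriched cells.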
